A study of Mus musculus with 15 samples.

Results

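C/EBP alpha was expressed in mouse fibroblasts and the RNA of those cells was set against cells that carried the same plasmid with no insert. The comparison rests on 6 of the 15 arrays of the study, the 3 titled for C/EBP alpha and the 3 titled for the vector, chosen by their titles. The cells were NIH 3T3, an immortal mouse embryonic fibroblast line. The C/EBP alpha group, called CEBPA here, carried a human C/EBP alpha cDNA behind a zinc-inducible metallothionein promoter in the plasmid pMTCB6+, and the vector group carried that plasmid alone. Both groups were selected with G418 and both received zinc sulphate for 16 h before lysis, so both treatments are shared. No array came from cells without zinc, so a different response of the groups to zinc was not tested. The other 9 arrays came from cells given C/EBP beta, delta or epsilon in the same way (CEBPB, CEBPD and CEBPE) and serve as a second reference.

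C/EBP alpha is a basic leucine zipper transcription factor that binds DNA as a dimer. It is known for its part in the terminal differentiation of fat cells, hepatocytes and granulocytes, where it switches on genes for lipid handling, plasma proteins and granule contents, and for slowing cell division. Fibroblasts of this line express other members of the family but are none of these cell types. The labels call the transfectants polyclonal clones grown in triplicate and do not say if each replicate was transfected on its own. The p-values therefore measure the spread between these cultures, which may be technical, and a difference between transfected pools cannot be told apart from an effect of C/EBP alpha.

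Signals are Affymetrix intensities in arbitrary units after each array was scaled to a common median. The units compare one probe set across arrays and say nothing of one gene against another. Values under 189.652 units were raised to that floor for the test but are printed as measured. A gene was tested where its brightest probe set exceeded 1092.06 units on 3 or more arrays of the 15, and 5338 genes were left. Correlations of log2 signal were 0.940 to 0.960 within the CEBPA and vector groups and 0.881 to 0.907 between them. In total RNA, fewer expressing cells and less RNA per expressing cell cannot be told apart.

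The fibroblast label was checked against 17 marker genes, of which 14 were measured. Col1a1, a chain of type I collagen, read 21527 ± 4173 units in vector (mean ± SD, n = 3, as in all such pairs below) and 17011 ± 2952 in CEBPA. The platelet-derived growth factor receptor gene Pdgfra read 8334 ± 1861 and 7676 ± 40.3, and the probe set of the filament gene Vim stayed under the filter at 757 ± 162 and 710.4 ± 184. The 17 signals summed to 157575 to 204094 units on the vector arrays and 149382 to 183103 on the CEBPA arrays. Such sums, here and below, are weighted by the brightest probe sets and do not measure cell type content. Prrx1 and Dcn rose, and 2 others fell: the surface glycoprotein gene Thy1 from 3842 ± 848 to 2392 ± 171 (log2 -0.66, SE 0.17, adjusted p = 0.0123) and the collagen receptor gene Ddr2 from 8906 ± 1004 to 6201 ± 216 (log2 -0.52, SE 0.13, adjusted p = 0.00975). Thy1 did not pass without vector replicate 2 (adjusted p = 0.0650), CEBPA replicate 1 (0.0515) or the arrays numbered 1 (0.0668), nor Ddr2 without vector replicate 3 (0.0534). Over the alternatives that leave out no single array, the adjusted p ranged from 0.00163 to 0.0668 for Thy1 and from 0.00591 to 0.0389 for Ddr2.

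Several markers of other cell types were measured in both groups, among them the epithelial cadherin gene Cdh1 at 2973 ± 491 and 2791 ± 319 and the macrophage receptor gene Csf1r at 5269 ± 336 and 5270.1 ± 1276, while others stayed under the filter. Ptprc, the pan-leukocyte antigen, read 130.3 ± 41.7 and 255 ± 163, and the epithelial adhesion gene Epcam 70.3 ± 49 and 171 ± 92. Also under it, the adiponectin gene Adipoq read 295 ± 196 and 170.5 ± 91.9, and the albumin gene Alb 769 ± 282 and 786 ± 130.4.

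Of 13 blood cell markers 7 were measured, of 8 endothelial 3, of 11 epithelial 2, of 7 skeletal muscle 3, of 7 adipocyte 1 (the leptin gene Lep) and of 9 hepatocyte 0. The blood cell markers summed to 14679.3 to 16323.9 units in vector and 12832.6 to 15584.4 in CEBPA, the adipocyte markers to 5399 to 6107 and 5980 to 7277, and the hepatocyte markers to 2339 to 2921 and 2778 to 3547. The sums were 5729 to 7300.2 and 5535 to 6688 for epithelial and 4991 to 6791 and 5611 to 6567 for skeletal muscle markers. The endothelial sum was lower, at 6761 to 8162 in vector and 3277 to 5070 in CEBPA. Vwf, the von Willebrand factor gene, differed most of these, at 2336 ± 365 and 180.4 ± 112. It was the 1 measured endothelial marker of 3 that was called. Kdr read 1634 ± 765 and 1403 ± 338 (log2 -0.12, adjusted p = 0.863 in limma) and Icam2 1073 ± 126 and 964 ± 147 (log2 -0.16, adjusted p = 0.784). Under the filter, Pecam1 read 1145 ± 348 and 683 ± 218, the endothelial cadherin gene Cdh5 272 ± 167 and 95.6 ± 25.4 and Emcn 397 ± 140 and 266 ± 213. Also under it, Tek read 266 ± 32.6 and 304 ± 264 and Tie1 128 ± 35.9 and 223 ± 318, both higher in CEBPA. The part of these markers in the results was not tested.

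In the family itself, the mouse probe set of Cebpa read 544 ± 84.4 in vector and 724 ± 199 in CEBPA, and whether it reads the human cDNA was not tested. Endogenous Cebpb read 14198 ± 4247 and 9575 ± 3271 (log2 -0.58, adjusted p = 0.295) and Cebpd 6691 ± 1337 and 6405 ± 392 (log2 -0.05, adjusted p = 0.92). Neither passed the test. Cebpg, a short family member without a transactivating domain, fell from 3824 ± 232 to 2497 ± 296 (log2 -0.62, SE 0.16, adjusted p = 0.0147) but did not pass without CEBPA replicate 2 (adjusted p = 0.0724; 0.005 to 0.0282 over the alternatives that leave out no single array). Ddit3, the stress-induced family member CHOP, fell and is described with the stress genes.

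Of the 5338 genes, 398 were higher in CEBPA (7.46%) and 391 lower (7.32%) at a Benjamini-Hochberg adjusted p of 0.05 in limma, with 111 (2.08%) and 130 (2.44%) past a 2-fold change. The 3 CEBPA arrays all lay above or all below the 3 vector arrays for 28.5% of the genes. They did so for all 398 called rises and for 383 of the 391 called falls, so arrays apart add little to a call. The median difference over all tested genes was 0.0095 on the log2 scale. Genes were ranked by their difference among those that passed and did not overlap, and ranks 11 to 40 in each direction are described here. Each gene was tested again in 12 alternative settings and in 15 fits that each left out 1 array. Of the 30 rises 18 kept the call in all of them, as did 24 of the 30 falls. A further 7 rises (Serpinb2, Wfdc21, Met, Slfn4, Lama4, Lyz2 and Fam20c) and 1 fall (Il11) kept it wherever they were tested but did not pass the filter in some of these fits. The remaining 5 rises and 5 falls lost it somewhere and are named as such.

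**Figure D1:**
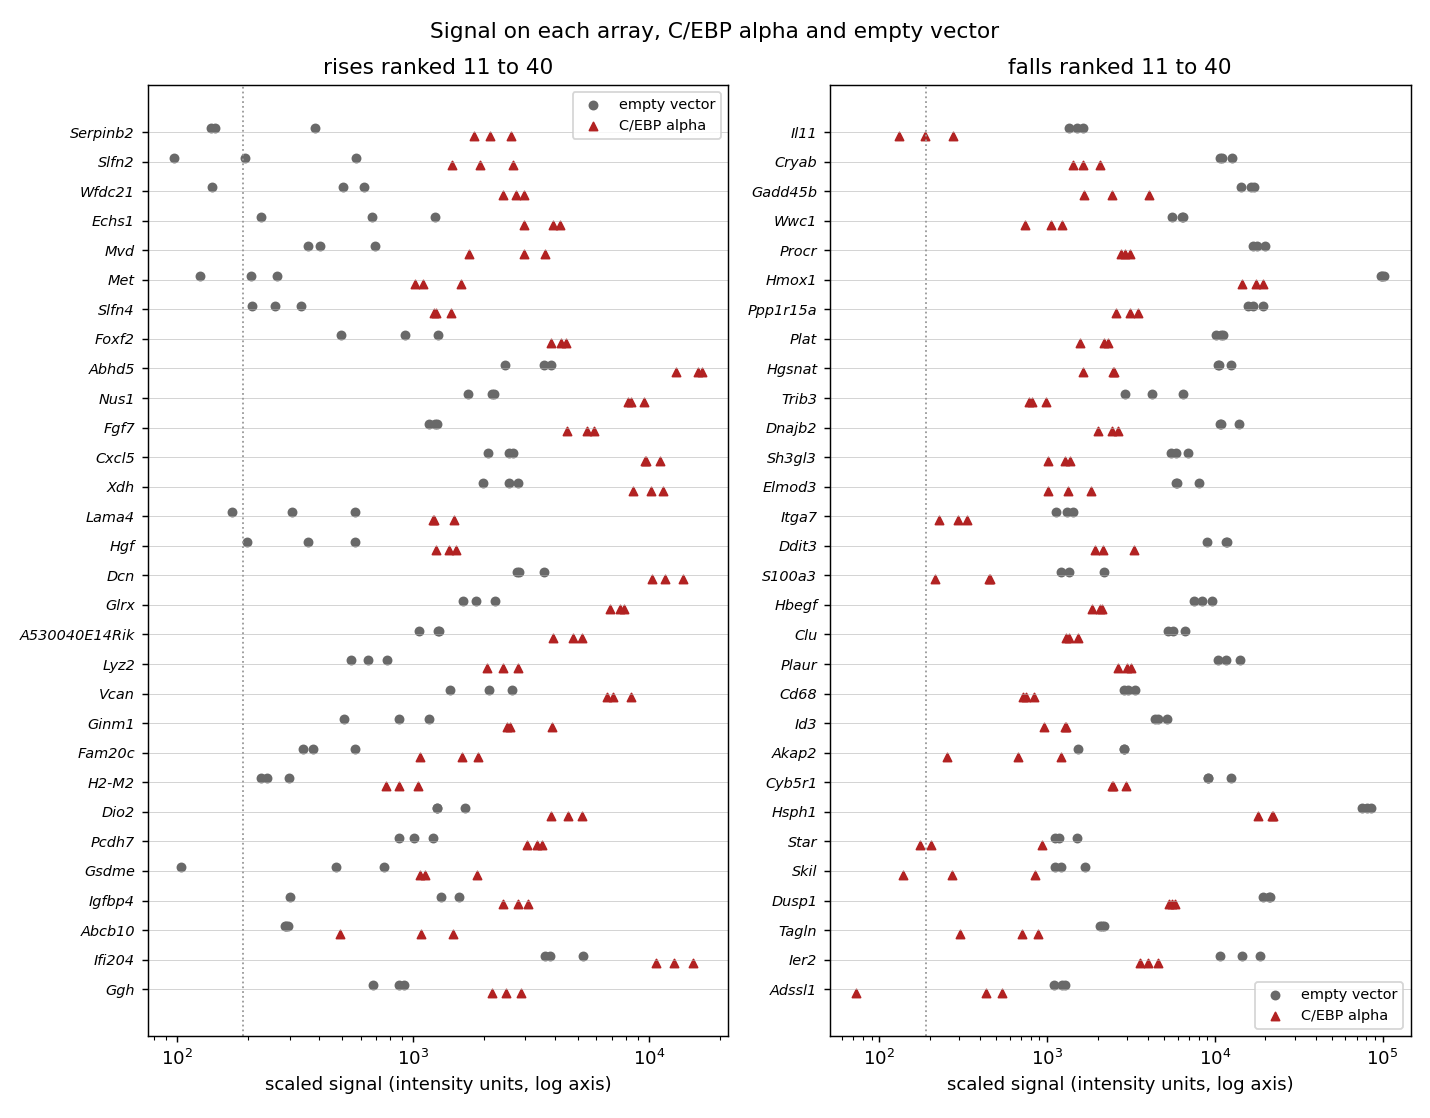
Scaled signal (intensity units, log axis) of the genes ranked 11 to 40 among the rises (left) and the falls (right); each grey circle is 1 vector array and each red triangle 1 CEBPA array, 3 per group, and the dotted line is the floor of 189.652 units. In every row the 3 red points lie on 1 side of the 3 grey points, which the ranking required, and the spread within a group is widest for genes near the floor.

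Genes that handle fatty acids and sterols rose in CEBPA cells in 5 lists, and these lists held no fall. Of 30 genes of lipid uptake and storage on the array 20 were measured, 7 rose and 0 fell (0 at an unadjusted p under 0.05 in limma), with a list median of 0.38. Abhd5, a ranked gene outside that list, encodes the protein that activates the triglyceride lipase of lipid droplets. It read 2465, 3598 and 3865 units on the vector arrays and 12989, 16181 and 16779 on the CEBPA arrays. Each CEBPA array was at least 3 times as bright as any vector array, and the gene rose 4.69-fold (log2 2.23, SE 0.20, adjusted p = 5.27e-07). Dgat1, the enzyme of the last step of triglyceride synthesis, read 2131, 2862 and 2239 in vector and 4864, 6087 and 7133 in CEBPA, a rise of 2.49-fold (log2 1.32, SE 0.21, adjusted p = 0.000294). Angptl4, a secreted inhibitor of lipoprotein lipase, read 1607, 763 and 812 in vector and 3315, 2364 and 2528 in CEBPA and rose 2.71-fold (log2 1.44, SE 0.31, adjusted p = 0.00416). Another of its probe sets rose too (log2 1.45, adjusted p = 0.0020 in limma), but a further one read log2 -0.43 and was not called (adjusted p = 0.714). In all 3 genes the lowest CEBPA array was above the highest vector array, as in every called rise. Abhd5, Dgat1 and Angptl4 kept their calls.

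Several enzymes of fatty acid breakdown rose. Of 17 measured genes (of 19) of mitochondrial oxidation 5 rose and 0 fell (0 at an unadjusted p under 0.05 in limma; median 0.24), and of 20 peroxisomal genes (of 24) 6 rose and 0 fell (1 at an unadjusted p under 0.05; median 0.34). Echs1, the enoyl-CoA hydratase of the mitochondrial spiral, read 228, 1245 and 668 on the vector arrays and 2971, 3942 and 4205 on the CEBPA arrays. Its vector arrays were widely spread, and it rose 6.38-fold (log2 2.67, SE 0.42, adjusted p = 0.000302). Etfa, a subunit of the flavoprotein that carries electrons from acyl-CoA dehydrogenases, went from 3346 ± 438 to 5440.2 ± 317 (log2 0.71, SE 0.14, adjusted p = 0.00248). In the peroxisome, Scp2, whose products include a thiolase and a sterol carrier, rose from 2899 ± 196 to 5111 ± 440.2 (log2 0.82, SE 0.13, adjusted p = 0.000302) and the dienoyl-CoA isomerase gene Ech1 from 4384 ± 551 to 7554 ± 432 (log2 0.79, SE 0.15, adjusted p = 0.00127). These 4 genes kept their calls, and their CEBPA arrays, as in every called rise, did not overlap the vector arrays.

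Some synthesis genes rose. Elovl6, which lengthens palmitate to stearate, read 1408, 1996 and 1075 in vector and 4756, 3152 and 3827 in CEBPA, 2.67-fold higher (log2 1.42, SE 0.22, adjusted p = 0.000219), and was 1 of 3 rises among 12 fatty acid synthesis genes (0 fell, 0 at an unadjusted p under 0.05). Of 16 cholesterol synthesis genes 9 rose, 7 of them in every fit that tested them, 0 fell (0 at an unadjusted p under 0.05), and all 16 differences were above 0, with a median of 0.65. Mvd, the decarboxylase that makes isopentenyl diphosphate, read 359, 691 and 403 in vector and 1721, 2947 and 3619 in CEBPA. No vector array came near the lowest CEBPA array, and Mvd rose 5.68-fold (log2 2.51, SE 0.41, adjusted p = 0.000417). Further along, Fdps, farnesyl diphosphate synthase, rose from 20047 ± 2667 to 45709.6 ± 9417 (log2 1.18, SE 0.21, adjusted p = 0.000819). Nus1, a subunit of the prenyltransferase that makes dolichol from the same precursors, read 1705, 2198 and 2160.4 in vector and 8424, 8157 and 9521 in CEBPA and rose 4.32-fold (log2 2.11, SE 0.14, adjusted p = 1.97e-08).

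Counts of these lists were sensitive to single arrays. The 7 rises in lipid uptake were 3 without vector replicate 3 and 3 without CEBPA replicate 3. The 6 in the peroxisome list were 3 without vector replicate 3, without CEBPA replicate 1 or without CEBPA replicate 3, and 2 without CEBPA replicate 2. The 3 in fatty acid synthesis were 1 without vector replicate 1 or CEBPA replicate 3 and 5 without vector replicate 2. These counts include genes bright on few arrays, which do not pass the filter when 1 of those arrays is left out. Without all arrays numbered 1 the rises were 4, 2, 1 and 2 for lipid uptake, the peroxisome, fatty acid synthesis and mitochondrial oxidation, against 7 for cholesterol synthesis.

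**Figure D2:**
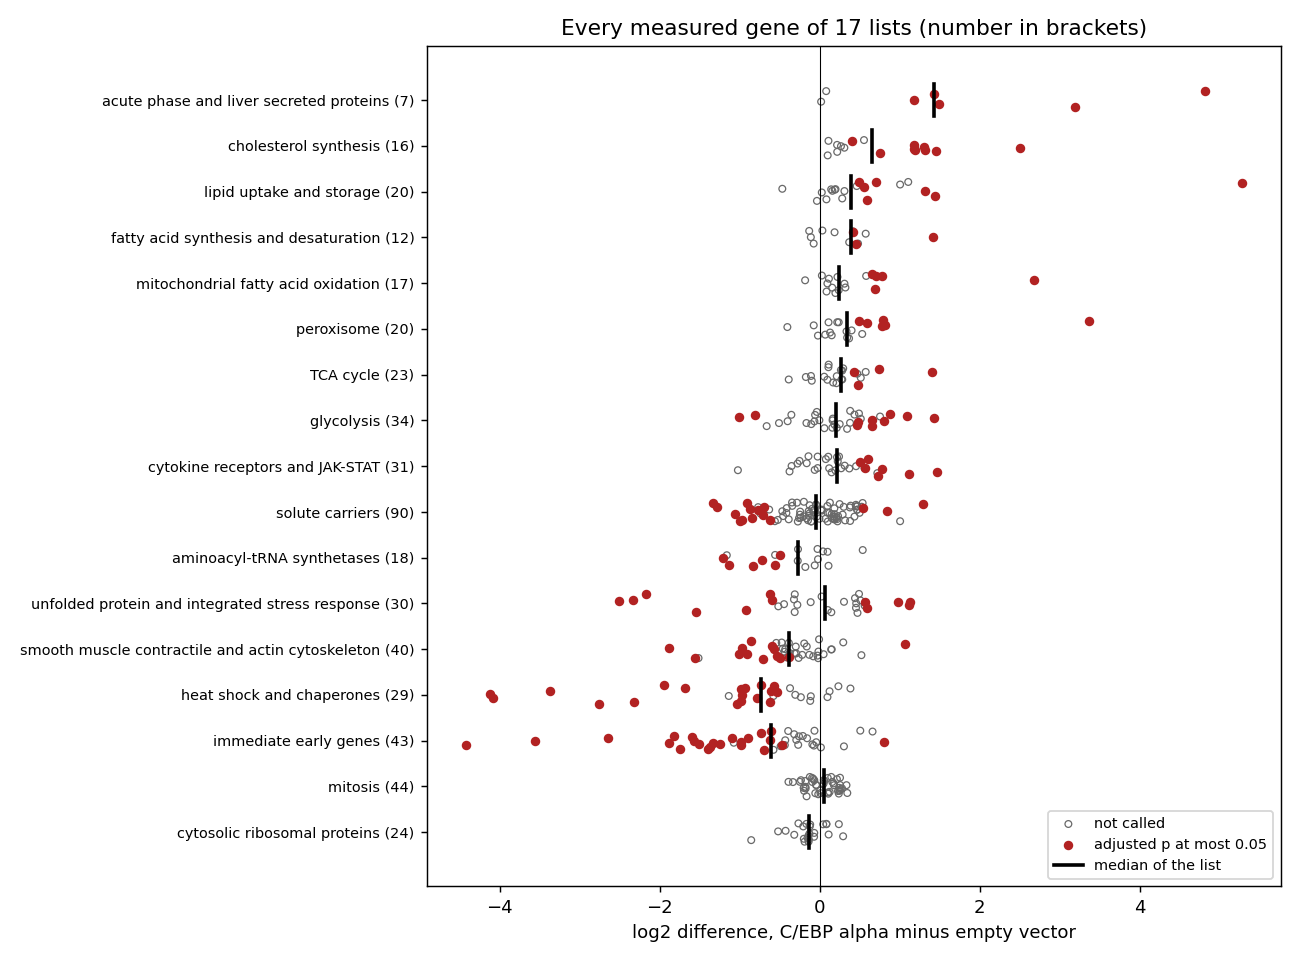
Log2 difference, CEBPA minus vector, of every measured gene of 17 lists, 1 point a gene with a small vertical offset; red points passed an adjusted p of 0.05 in limma, open points did not, and the black bar is the median of the list. The cholesterol points all lie right of 0, and most heat shock and immediate early points lie left of it. The mitosis points sit around 0 and most ribosomal protein points a little left of it (median -0.14, 6 of 24 above 0), with none called in either list.

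Central carbon metabolism gave a mixed picture. In the list of glycolysis and glycogen genes 8 of 34 rose and 2 fell, and of 23 genes of the tricarboxylic acid cycle 4 rose and 0 fell (0 at an unadjusted p under 0.05). Pfkl, the liver form of phosphofructokinase, read 7704, 8316 and 7296 in vector and 19182, 21631 and 22131 in CEBPA, a rise of 2.7-fold (log2 1.43, SE 0.15, adjusted p = 4.23e-06). Idh1, the cytosolic isocitrate dehydrogenase that yields NADPH, read 4374, 4133 and 4135 in vector and 12035, 10206 and 11184 in CEBPA and rose 2.64-fold (log2 1.40, SE 0.12, adjusted p = 5.54e-07). In both genes the arrays of a group agreed closely and the groups lay far apart. Gbe1, the glycogen branching enzyme, rose from 1048 ± 107 to 2225 ± 19.6 (log2 1.09, SE 0.18, adjusted p = 0.000507), while Eno2, the neuronal type of enolase, fell from 5955 ± 274 to 2951 ± 173 (log2 -1.01, SE 0.14, adjusted p = 0.00012). Bckdhb, a subunit of the dehydrogenase for branched-chain keto acids, rose from 1797 ± 608 to 5359 ± 1041 (log2 1.61, SE 0.25, adjusted p = 0.000246). The glycolysis count was 4 without vector replicate 1 and 5 without vector replicate 3 or CEBPA replicate 3, and the cycle count was 2 without vector replicate 1 or CEBPA replicate 3. Of 69 measured oxidative phosphorylation genes 6 rose, a share close to the 7.46% over all genes, and the count ran from 2 without vector replicate 3 to 18 with quantile normalization.

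Single enzymes with high ranks had varied roles. Xdh, xanthine dehydrogenase, which forms uric acid, read 1979.6, 2792 and 2556 on the vector arrays and 8587, 10224 and 11435 on the CEBPA arrays and rose 4.14-fold (log2 2.05, SE 0.21, adjusted p = 2.57e-06). Glrx encodes glutaredoxin, which reduces protein disulphides with glutathione. Its signal rose 3.92-fold from 1903 ± 309 to 7407 ± 498 (log2 1.97, SE 0.14, adjusted p = 6.33e-08), and the microsomal glutathione transferase Mgst1 went from 1862 ± 206 to 5349 ± 235 (log2 1.53, SE 0.14, adjusted p = 7.03e-07). Dio2, the deiodinase that makes active thyroid hormone, read 1658, 1269 and 1263 in vector and 3865, 5199.8 and 4526 in CEBPA, a rise of 3.25-fold (log2 1.70, SE 0.16, adjusted p = 1.31e-06). Ggh, the lysosomal hydrolase of folate polyglutamates, rose 3.07-fold from 819.5 ± 126 to 2511 ± 351 (log2 1.62, SE 0.23, adjusted p = 0.000119). Fam20c, a protein kinase of the secretory pathway, rose 3.55-fold (log2 1.83, SE 0.41, adjusted p = 0.00526), from 376, 341 and 566 in vector to 1069.7, 1887 and 1609 in CEBPA. For all of these the lowest CEBPA array was above the highest vector array, as in every called rise. The list of antioxidant and xenobiotic genes as a whole had 8 rises and 4 falls among 46, the falls near the 7.32% over all tested genes. The falls were 2 without vector replicate 2 or without CEBPA replicate 2.

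Secreted signals and their receptors changed in both directions. Fgf7, keratinocyte growth factor, read 1175, 1263 and 1242 in vector and 4500.3, 5859.8 and 5470.3 in CEBPA. The vector arrays were nearly equal, and Fgf7 rose 4.28-fold (log2 2.10, SE 0.15, adjusted p = 6.00e-08). Cxcl5, a chemokine that attracts neutrophils, read 2667, 2552 and 2075 in vector and 11157, 9638 and 9766 in CEBPA and rose 4.21-fold (log2 2.07, SE 0.13, adjusted p = 1.31e-08), and the related Cxcl1 went from 5929 ± 92.6 to 12445 ± 2758 (log2 1.05, SE 0.14, adjusted p = 7.13e-05). Met, a receptor tyrosine kinase for the ligand HGF, read 205, 125 and 264 in vector, near the floor, and 1098, 1019 and 1602 in CEBPA, and rose 5.59-fold (log2 2.48, SE 0.47, adjusted p = 0.00161). Its ligand Hgf rose 4.06-fold from 198, 361 and 567 in vector to 1254, 1523 and 1423 in CEBPA (log2 2.02, SE 0.51, adjusted p = 0.0113). With vector replicate 1 left out Hgf no longer passed (0.0536, range over the alternatives 0.000442 to 0.0162). Ereg, a ligand of the epidermal growth factor receptor, rose from 888 ± 316 to 2228 ± 233 (log2 1.38, SE 0.22, adjusted p = 0.000286).

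Other ligands fell. Hbegf, another ligand of that receptor, read 8345, 9692 and 7571 in vector and 2141, 1848 and 2075 in CEBPA, 4.21-fold lower (log2 -2.07, SE 0.15, adjusted p = 6.81e-08). Il11, a cytokine of the interleukin-6 type, read 1343, 1511 and 1642 in vector and 189, 131 and 275 in CEBPA, so that 2 of 3 CEBPA arrays were at the floor, and fell 6.96-fold (log2 -2.80, SE 0.53, adjusted p = 0.00138). The neurotrophic factor Gdnf fell from 5589.5 ± 1056 to 2612 ± 536 (log2 -1.10, SE 0.18, adjusted p = 0.000306) and the chemokine Ccl9 from 19367 ± 6161 to 6641 ± 1295 (log2 -1.52, SE 0.20, adjusted p = 4.92e-05). Among 25 growth factors 4 rose and 8 fell, the rises being 2 without vector replicate 1 or without any 1 CEBPA array, and the falls 5 without vector replicate 2 or CEBPA replicate 1. Among 15 chemokines and cytokines 2 rose and 3 fell. Receptors of the cytokine class and their JAK-STAT partners had 7 rises and 0 falls among 31 (1 fall at an unadjusted p under 0.05). Osmr, the oncostatin M receptor, read 2512, 3064 and 2467 in vector and 7356, 7154 and 7642 in CEBPA and rose 2.77-fold (log2 1.47, SE 0.16, adjusted p = 6.14e-06), and the growth hormone receptor gene Ghr rose 2.17-fold from 2555 ± 282 to 5535 ± 619 (log2 1.11, SE 0.16, adjusted p = 0.000129). Fgfr1, a receptor of fibroblast growth factors, fell from 12745 ± 1147 to 6698 ± 221 (log2 -0.92, SE 0.14, adjusted p = 0.000251).

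Several defence genes of myeloid and interferon-responsive cells rose. Slfn2 and Slfn4 are neighbouring schlafen genes, a family that responds to interferon, and they are similar enough that probes may share signal, which was not tested. Slfn2 read 194, 97.2 and 576 in vector and 1460.1, 2669 and 1932 in CEBPA and rose 7.08-fold (log2 2.82, SE 0.46, adjusted p = 0.000409; log2 3.50 on its other probe set). Slfn4 read 207, 262 and 335 in vector and 1234, 1252 and 1454 in CEBPA and rose 4.98-fold (log2 2.32, SE 0.48, adjusted p = 0.00287). In both, all CEBPA arrays lay above the 1092.06 unit filter and all vector arrays below it. The 3 CEBPA arrays alone met the filter rule, so their position over it is no further support. Ifi204, an interferon-inducible gene of the p200 family, which also has close relatives, rose 3.07-fold from 4241 ± 907 to 12993 ± 2374 (log2 1.62, SE 0.21, adjusted p = 4.59e-05). In the list of interferon and antigen presentation genes 6 of 33 rose and 2 fell, the falls including B2m, the light chain of MHC class I, from 44212 ± 6513 to 25294 ± 2179 (log2 -0.80, SE 0.15, adjusted p = 0.00107).

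Lyz2, lysozyme of macrophages and granulocytes, read 549, 774 and 646 in vector and 2788, 2064 and 2401 in CEBPA, a rise of 3.69-fold (log2 1.88, SE 0.31, adjusted p = 0.000474). Camp, the cathelicidin of neutrophil granules, rose from 604 ± 213 to 1521 ± 238 (log2 1.39, SE 0.34, adjusted p = 0.00977). Other genes of such cells went the other way. Cd68, a lysosomal glycoprotein used to mark macrophages, read 2889, 3369 and 3051 in vector and 715, 751 and 833 in CEBPA and fell 4.05-fold (log2 -2.02, SE 0.15, adjusted p = 8.79e-08), and the gelatinase gene Mmp9 fell from 1411 ± 164 to 570 ± 327 (log2 -1.45, SE 0.35, adjusted p = 0.0083). Of 36 granulocyte and myeloid genes on the array 13 were measured, 3 rose and 2 fell. Wfdc21, which encodes a small protein with a whey acidic protein domain, read 141, 504 and 618 in vector and 2402, 2743 and 2953 in CEBPA and rose 6.9-fold (log2 2.79, SE 0.67, adjusted p = 0.00906). Serpinb2, plasminogen activator inhibitor type 2, stood at rank 11 of the rises. It read 145, 383 and 139 in vector, with 2 arrays at the floor, and 2133, 2614 and 1820.4 in CEBPA, a rise of 9.03-fold (log2 3.18, SE 0.61, adjusted p = 0.00161). Among secreted liver and acute phase proteins, of which 7 of 34 genes were measured, 5 rose and 0 fell (0 at an unadjusted p under 0.05). Of these, the serum amyloid gene Saa3 rose from 1279 ± 147 to 3439 ± 208 (log2 1.43, SE 0.27, adjusted p = 0.00155) and the pattern-binding protein gene Ptx3 from 3944 ± 602 to 11204 ± 2539 (log2 1.49, SE 0.20, adjusted p = 4.93e-05).

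The upstream sequence of ranked genes was searched for short motifs because the introduced protein binds DNA. The 250 bases before each RefSeq start (build GRCm38.p6) were read on both strands, and 27 of the 40 ranked rises and 27 of the 40 ranked falls had an entry. A loose C/EBP motif, TTNNGNAA, stood in 43.8% of the promoters of the rises (14 of 32), in 14 of 35 of those of the falls, in 28.6% of the promoters of all tested genes and in 36.8% of all promoters of the table. Some genes have several promoters, which can overlap. By gene it stood in 13 of 27 rises, 12 of 27 falls and 1424 of 4343 tested genes. The palindrome TTGCGCAA stood in 0 of the 32 and 0 of the 35, and in 0.338% over tested genes. The sequences of 4 defence genes that rose are shown because each holds the loose motif, in capitals, S100a8 being the neutrophil gene among the 10 largest rises (680.3 ± 142 to 8726 ± 929). A match says only that these letters are present. S100a8 lies at chr3:90668821-90669070, plus strand, Lyz2 at chr10:117282273-117282522, minus strand, Slfn2 at chr11:83064862-83065111, plus strand and Slfn4 at chr11:83174936-83175185, plus strand. The motif begins 117, 55, 168 and 209 bases before the start.
S100a8: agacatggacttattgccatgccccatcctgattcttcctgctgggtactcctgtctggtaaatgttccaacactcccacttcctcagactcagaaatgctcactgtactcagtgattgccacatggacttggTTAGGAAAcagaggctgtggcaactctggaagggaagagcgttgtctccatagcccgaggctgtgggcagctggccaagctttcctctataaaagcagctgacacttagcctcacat
Lyz2: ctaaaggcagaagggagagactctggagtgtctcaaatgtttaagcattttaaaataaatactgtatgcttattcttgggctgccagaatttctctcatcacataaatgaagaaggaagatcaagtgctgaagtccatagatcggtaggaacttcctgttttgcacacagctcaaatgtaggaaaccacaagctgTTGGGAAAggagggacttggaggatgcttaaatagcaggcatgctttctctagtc
Slfn2: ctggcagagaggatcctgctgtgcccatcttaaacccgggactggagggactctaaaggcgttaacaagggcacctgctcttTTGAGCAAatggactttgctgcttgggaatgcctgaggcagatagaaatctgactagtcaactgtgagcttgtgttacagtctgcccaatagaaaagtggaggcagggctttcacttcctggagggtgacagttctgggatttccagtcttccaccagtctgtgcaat
Slfn4: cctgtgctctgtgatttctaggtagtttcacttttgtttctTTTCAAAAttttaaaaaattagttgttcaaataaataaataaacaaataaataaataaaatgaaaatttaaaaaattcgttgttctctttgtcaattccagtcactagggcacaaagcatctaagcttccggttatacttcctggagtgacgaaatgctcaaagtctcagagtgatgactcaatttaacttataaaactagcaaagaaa

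Matrix genes differed by type. The collagen list had 1 rise and 1 fall among 25 genes, under the 7.46% and 7.32% over all tested genes. Proteoglycans and glycoproteins had 7 rises and 2 falls among 35. Dcn, decorin, which binds collagen fibrils, read 2750.2, 3582 and 2823 in vector and 10332, 11687 and 13965 in CEBPA and rose 3.93-fold (log2 1.97, SE 0.17, adjusted p = 4.04e-07). The large hyaluronan-binding proteoglycan Vcan read 1437, 2108 and 2636 in vector and 6633, 7044 and 8369 in CEBPA and rose 3.66-fold (log2 1.87, SE 0.20, adjusted p = 6.57e-06). Even the brightest vector array of either gene was well below the dimmest CEBPA array. Lama4, a laminin chain of basement membranes, rose 4.07-fold from 348 ± 200.3 to 1311 ± 152 (log2 2.03, SE 0.48, adjusted p = 0.00752), and Thbs2, thrombospondin 2, from 1842 ± 323 to 5117 ± 959.5 (log2 1.47, SE 0.19, adjusted p = 4.23e-05). The collagen rise was Lox, the oxidase that crosslinks collagen, from 9558 ± 1315 to 17993 ± 491 (log2 0.92, SE 0.18, adjusted p = 0.00168). Mfap5, a protein of elastic microfibrils, fell from 4246 ± 529.9 to 2235 ± 149 (log2 -0.92, SE 0.13, adjusted p = 9.29e-05). The 7 glycoprotein rises were 4 without CEBPA replicate 1 and 3 without all arrays numbered 1.

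Transcription factor genes that rose included Foxf2, a forkhead factor of mesenchyme, which read 496, 1280.4 and 929.9 in vector and 4436, 3835 and 4240.1 in CEBPA and rose 4.96-fold (log2 2.31, SE 0.34, adjusted p = 0.000168). Prrx1, a homeobox factor of mesenchyme, rose from 2090 ± 233 to 4014 ± 679 (log2 0.93, SE 0.17, adjusted p = 0.00108), and the nuclear receptor gene Nr2f1 from 2133 ± 318 to 4319 ± 944 (log2 1.01, SE 0.16, adjusted p = 0.000251). Snai2, the zinc finger repressor Slug, fell from 4145 ± 657 to 2287 ± 484 (log2 -0.87, SE 0.17, adjusted p = 0.00176), and the chromatin protein gene Hmga2 from 33718 ± 1238 to 19773 ± 2384 (log2 -0.78, SE 0.12, adjusted p = 0.000302). Of 52 homeobox and developmental factors 2 rose and 4 fell, near or under the 7.46% and 7.32% over all tested genes. In the circadian clock, Nr1d1, the repressor REV-ERB alpha, read 7432, 8890.3 and 6721 in vector and 2167, 2413 and 2424 in CEBPA and fell 3.27-fold (log2 -1.71, SE 0.15, adjusted p = 4.14e-07). Nfil3, a bZIP repressor of clock output, went the other way, from 1143, 1667 and 1334 in vector to 2930.4, 3914 and 4161 in CEBPA, a rise of 2.66-fold (log2 1.41, SE 0.21, adjusted p = 0.000179). Neither pair of groups overlapped, as in nearly all called genes. The other ranked rises without a list were the cadherin gene Pcdh7 (log2 1.69, SE 0.15, adjusted p = 5.07e-07), the membrane glycoprotein gene Ginm1 (log2 1.86, SE 0.36, adjusted p = 0.00165) and A530040E14Rik (log2 1.93, SE 0.20, adjusted p = 4.02e-06).

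Among the falls, genes that cells switch on under stress were frequent. Of 33 heat shock and chaperone genes on the array 29 were measured, 18 fell, 14 of them in every fit that tested them, and 0 rose (0 at an unadjusted p under 0.05 in limma), with a median of -0.73. Cryab, a small heat shock protein that holds unfolding proteins, read 10758, 12586 and 11109 in vector and 2069, 1432 and 1648 in CEBPA. Every CEBPA array was far below every vector array, and Cryab fell 6.75-fold (log2 -2.76, SE 0.15, adjusted p = 2.58e-09). Hsph1, the exchange factor Hsp110, read 75097, 80989 and 85190.3 in vector and 22029.6, 18178 and 22387 in CEBPA and fell 3.87-fold (log2 -1.95, SE 0.13, adjusted p = 1.62e-08). Dnajb2, a co-chaperone of Hsp70, fell 5-fold from 11869 ± 1781 to 2371 ± 328 (log2 -2.32, SE 0.17, adjusted p = 7.42e-08), and Chordc1, a co-chaperone of Hsp90, 3.2-fold from 22417 ± 325 to 7019 ± 587 (log2 -1.68, SE 0.12, adjusted p = 3.13e-08). Clu, the extracellular chaperone clusterin and not in the list, fell 4.19-fold from 5843 ± 698 to 1392 ± 116 (log2 -2.07, SE 0.18, adjusted p = 4.25e-07; log2 -3.92 on its other probe set). The chaperonin containing TCP1, which folds actin and tubulin, did not show this pattern, with 0 of 10 measured subunits called in either direction in limma (2 higher and 0 lower at an unadjusted p under 0.05). Hmox1, heme oxygenase, read 99003, 102191 and 97965 in vector and 17704, 14447 and 19342 in CEBPA and fell 5.85-fold (log2 -2.55, SE 0.18, adjusted p = 4.67e-08).

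Immediate early genes, whose transcripts appear soon after a stimulus, fell in 22 of 43 cases, 17 of them in every fit that tested them, and rose in 1, with a median of -0.60. Dusp1, the phosphatase that shuts off stress kinases, read 19468, 21325 and 21095 in vector and 5794, 5367 and 5550.2 in CEBPA and fell 3.7-fold (log2 -1.89, SE 0.11, adjusted p = 9.51e-09). Ier2 read 10791, 18703 and 14462 in vector and 3570.5, 4017 and 4587 in CEBPA and fell 3.54-fold (log2 -1.82, SE 0.24, adjusted p = 4.89e-05). The vector arrays of Ier2 varied more than its CEBPA arrays but stayed above them, as its rank required. Gadd45b, a growth arrest gene, fell 6.25-fold from 15935 ± 1453 to 2722 ± 1233 (log2 -2.64, SE 0.23, adjusted p = 5.07e-07; log2 -3.55 on its other probe set), and the antiproliferative gene Btg2 from 9973 ± 689 to 2978 ± 221 (log2 -1.74, SE 0.13, adjusted p = 9.59e-08). The kinase gene Pim1 fell from 10161 ± 1184 to 3395 ± 624 (log2 -1.59, SE 0.15, adjusted p = 7.77e-07) and the zinc finger factor Klf4 from 7871 ± 1429.8 to 3028 ± 308 (log2 -1.37, SE 0.13, adjusted p = 1.48e-06). The single rise was Dusp6, a phosphatase of ERK, from 3096 ± 759 to 5354 ± 958 (log2 0.80, SE 0.18, adjusted p = 0.00575). Mknk2, a kinase downstream of ERK that acts on the cap-binding factor, fell 3.3-fold from 14608 ± 1888 to 4429 ± 536 (log2 -1.72, SE 0.15, adjusted p = 4.13e-07).

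Genes of the integrated stress response, in which ATF4 raises CHOP, amino acid synthesis and tRNA charging, formed the next group. Ppp1r15a, the phosphatase subunit GADD34 that restores translation, read 15852, 19479 and 16946 in vector and 2586, 3132 and 3479.6 in CEBPA and fell 5.71-fold (log2 -2.51, SE 0.15, adjusted p = 1.03e-08). Ddit3 read 9045, 11744 and 11808 in vector and 1930.2, 3281 and 2147 in CEBPA and fell 4.52-fold (log2 -2.18, SE 0.17, adjusted p = 1.92e-07). Trib3, a pseudokinase induced by CHOP, read 2929, 6477 and 4202 in vector and 813, 986 and 776 in CEBPA and fell 5.04-fold (log2 -2.33, SE 0.35, adjusted p = 0.000193). All CEBPA arrays of these 3 genes lay below all vector arrays, which their ranking required. Of 18 aminoacyl-tRNA synthetase genes 6 fell, 3 in every fit that tested them, and 0 rose (1 at an unadjusted p under 0.05), with a median of -0.27. The synthetase for asparagine, Nars, fell from 6534 ± 829.7 to 2869 ± 688 (log2 -1.21, SE 0.18, adjusted p = 0.000161) and that for alanine, Aars, from 13253 ± 1959 to 6023 ± 369 (log2 -1.13, SE 0.14, adjusted p = 2.62e-05). Psph, the last enzyme of serine synthesis, read 14128, 14316 and 13809 in vector and 4994, 5845 and 5479 in CEBPA and fell 2.59-fold (log2 -1.38, SE 0.11, adjusted p = 1.47e-07), and Asns, asparagine synthetase, fell from 36176 ± 2083 to 23809.9 ± 1386 (log2 -0.60, SE 0.12, adjusted p = 0.00194). Slc3a2, the heavy chain of amino acid exchangers, fell from 30259 ± 7683 to 12181 ± 434 (log2 -1.28, SE 0.17, adjusted p = 4.89e-05).

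The endoplasmic reticulum branch was mixed. Dnajb9, a co-chaperone of the lumen, fell from 3879.6 ± 618 to 1376 ± 504 (log2 -1.54, SE 0.26, adjusted p = 0.000455), while Ero1a, the oxidase that drives disulphide formation, rose from 7124 ± 1716 to 15232 ± 1209 (log2 1.12, SE 0.15, adjusted p = 6.06e-05) and Selenos, a selenoprotein of the degradation pathway, from 1760.2 ± 509 to 3726 ± 82.4 (log2 1.12, SE 0.24, adjusted p = 0.00417). In the combined list 7 of 30 genes fell and 5 rose, the rises being 3 without vector replicate 1. Zinc was given to both groups, and of 15 metallothionein and zinc transport genes 5 fell and 0 rose (1 at an unadjusted p under 0.05). The 1 fall that held in every fit that tested it was the zinc exporter Slc30a1, from 2226, 2164 and 2159 in vector to 1403, 948 and 1163 in CEBPA (log2 -0.92, SE 0.18, adjusted p = 0.00184). That count was 2 without vector replicate 2, 3 without any 1 CEBPA array and 1 with no filter.

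The upstream sequences of 4 genes that fell, 3 of them stress genes, are shown because they hold a heat shock or a cyclic AMP response motif, in capitals. The heat shock unit GAANNTTC stood in 11.4% of the promoters of the 40 ranked falls (4 of 35), in 0 of 32 of the rises and in 4.81% over tested genes. These 4 include Hspa1a and Hspa1b, whose upstream sequences are nearly identical. The cyclic AMP motif TGACGTCA stood in 8.57% of those of the falls (3 of 35), in 3.12% of those of the rises (1 of 32) and in 2.35% over tested genes. The AP-1 motif TGANTCA, of the Fos and Jun proteins, stood in 22.9% of those of the falls (8 of 35), in 18.8% of those of the rises (6 of 32) and in 4.81% over tested genes. Glrx and Serpinb2 entered the rises with overlapping promoters. By gene the AP-1 motif stood in 7 of 27 falls, 4 of 27 rises and 255 of 4343 tested genes. Hspa1b, an Hsp70 gene among the 10 largest falls (79957 ± 6176 to 4653 ± 832), lies at chr17:34959239-34959488, minus strand, and its heat shock unit begins 104 bases before the start. Sh3gl3, an endophilin gene, lies at chr7:82174546-82174795, plus strand and fell from 5904, 6894 and 5457 in vector to 1283, 1018 and 1365 in CEBPA (log2 -2.32, SE 0.19, adjusted p = 3.13e-07). Ppp1r15a lies at chr7:45526269-45526518, minus strand and Dusp1 at chr17:26508473-26508722, minus strand, with the cyclic AMP motif 12 and 143 bases before the start. No binding was measured.
Hspa1b: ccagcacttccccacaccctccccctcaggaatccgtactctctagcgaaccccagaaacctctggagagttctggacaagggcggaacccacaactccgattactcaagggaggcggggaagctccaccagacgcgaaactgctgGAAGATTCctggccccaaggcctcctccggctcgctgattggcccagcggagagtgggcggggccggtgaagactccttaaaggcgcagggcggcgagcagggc
Sh3gl3: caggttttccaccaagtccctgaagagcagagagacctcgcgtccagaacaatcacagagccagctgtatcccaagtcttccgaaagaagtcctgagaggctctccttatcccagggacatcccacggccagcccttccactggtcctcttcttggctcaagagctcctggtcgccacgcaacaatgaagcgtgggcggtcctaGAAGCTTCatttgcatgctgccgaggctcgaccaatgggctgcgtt
Ppp1r15a: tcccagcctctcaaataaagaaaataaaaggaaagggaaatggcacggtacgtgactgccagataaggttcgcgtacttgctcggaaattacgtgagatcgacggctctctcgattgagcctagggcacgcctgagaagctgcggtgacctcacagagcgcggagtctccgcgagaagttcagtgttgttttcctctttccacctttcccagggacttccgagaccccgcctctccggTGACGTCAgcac
Dusp1: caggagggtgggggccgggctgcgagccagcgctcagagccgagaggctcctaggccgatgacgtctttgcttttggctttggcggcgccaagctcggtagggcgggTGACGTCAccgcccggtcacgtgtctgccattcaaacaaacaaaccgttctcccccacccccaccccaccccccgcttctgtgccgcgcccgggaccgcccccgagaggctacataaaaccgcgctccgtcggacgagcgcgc

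Several proteins of clotting and plasmin formation fell. Procr, the receptor of protein C, read 16871, 19999.7 and 17774 units in vector and 2773, 2928 and 3117 in CEBPA, with little spread in either group, and fell 6.19-fold (log2 -2.63, SE 0.12, adjusted p = 2.77e-10). Plat, tissue plasminogen activator, read 10121, 11213 and 10898 in vector and 1583, 2190 and 2321 in CEBPA and fell 5.36-fold (log2 -2.42, SE 0.21, adjusted p = 5.07e-07). Plaur, the urokinase receptor, fell 4.09-fold from 12088 ± 1868 to 2939 ± 251 (log2 -2.03, SE 0.15, adjusted p = 5.65e-08), and F3, tissue factor, fell 1.86-fold from 5979.8 ± 895 to 3191 ± 89.8 (log2 -0.90, SE 0.15, adjusted p = 0.000407). With Serpinb2 rising and Mmp9 falling, the list of the plasminogen system and metalloproteases had 3 rises and 4 falls among 19, the rises being 1 without CEBPA replicate 1 or CEBPA replicate 2 and 0 without the arrays numbered 1. The complement and coagulation list had 2 rises and 3 falls among 13.

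Part of the contractile genes fell. Of 40 genes of smooth muscle and the actin cytoskeleton 12 fell, 8 in every fit that tested them, and 1 rose, with a median of -0.38. With the replicate number as a block 19 fell. Tagln, the actin-binding protein SM22, read 2179, 2126 and 2067 on the vector arrays and 707, 304 and 887 on the CEBPA arrays, which were the more variable, and fell 3.69-fold (log2 -1.88, SE 0.33, adjusted p = 0.000794). Acta2, smooth muscle actin, read 2892, 3201 and 2448 in vector and 871, 1046 and 964 in CEBPA (log2 -1.56, SE 0.19, adjusted p = 2.52e-05), and the actin-severing protein gene Gsn fell from 16773 ± 3932 to 8957 ± 2089 (log2 -0.91, SE 0.21, adjusted p = 0.00784). The rise was Marcks, an actin-binding substrate of protein kinase C, from 1835 ± 314 to 3804 ± 429.7 (log2 1.06, SE 0.16, adjusted p = 0.000191). Among 25 genes of TGF-beta and BMP signalling 6 fell and 1 rose. Id3, an inhibitor of basic helix-loop-helix factors, read 4422, 5161 and 4609 in vector and 965, 1293 and 1274 in CEBPA and fell 4.04-fold (log2 -2.02, SE 0.21, adjusted p = 4.02e-06), and Id2 fell from 4257 ± 931 to 1334 ± 101 (log2 -1.66, SE 0.19, adjusted p = 1.25e-05). The signal transducer gene Smad1 fell from 12534 ± 1950.1 to 5697 ± 151 (log2 -1.13, SE 0.14, adjusted p = 2.16e-05) and its inhibitor Smad7 from 4402 ± 285 to 2604 ± 206 (log2 -0.76, SE 0.12, adjusted p = 0.000302). The rise was Fstl1, a secreted follistatin-like protein, from 2806 ± 210.1 to 5619 ± 100.2 (2.01-fold, adjusted p = 4.89e-05).

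Growth control genes were split. Of 21 growth arrest and p53 target genes 8 fell and 2 rose. Mdm2, the ubiquitin ligase of p53, read 14682, 16255 and 12982 in vector and 6177, 4391 and 5405 in CEBPA and fell 2.76-fold (log2 -1.47, SE 0.15, adjusted p = 3.07e-06), and Cdkn1a, the inhibitor p21, fell from 7782 ± 1096 to 4251 ± 512 (log2 -0.87, SE 0.16, adjusted p = 0.00101). Cdkn2c, the inhibitor p18 of the cyclin D kinases, rose from 5182 ± 1130.4 to 12697 ± 2415 (log2 1.30, SE 0.21, adjusted p = 0.000374). The cell cycle itself gave few calls. None of 44 mitosis genes was called in limma (1 higher and 2 lower at an unadjusted p under 0.05), and of 50 genes of the G1/S step and replication 2 rose and 2 fell, none of the 4 in every fit that tested it. Likewise none of 24 cytosolic ribosomal protein genes was called (0 higher and 0 lower at an unadjusted p under 0.05). A call that is not made does not show that a gene stayed equal.

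**Figure D3:**
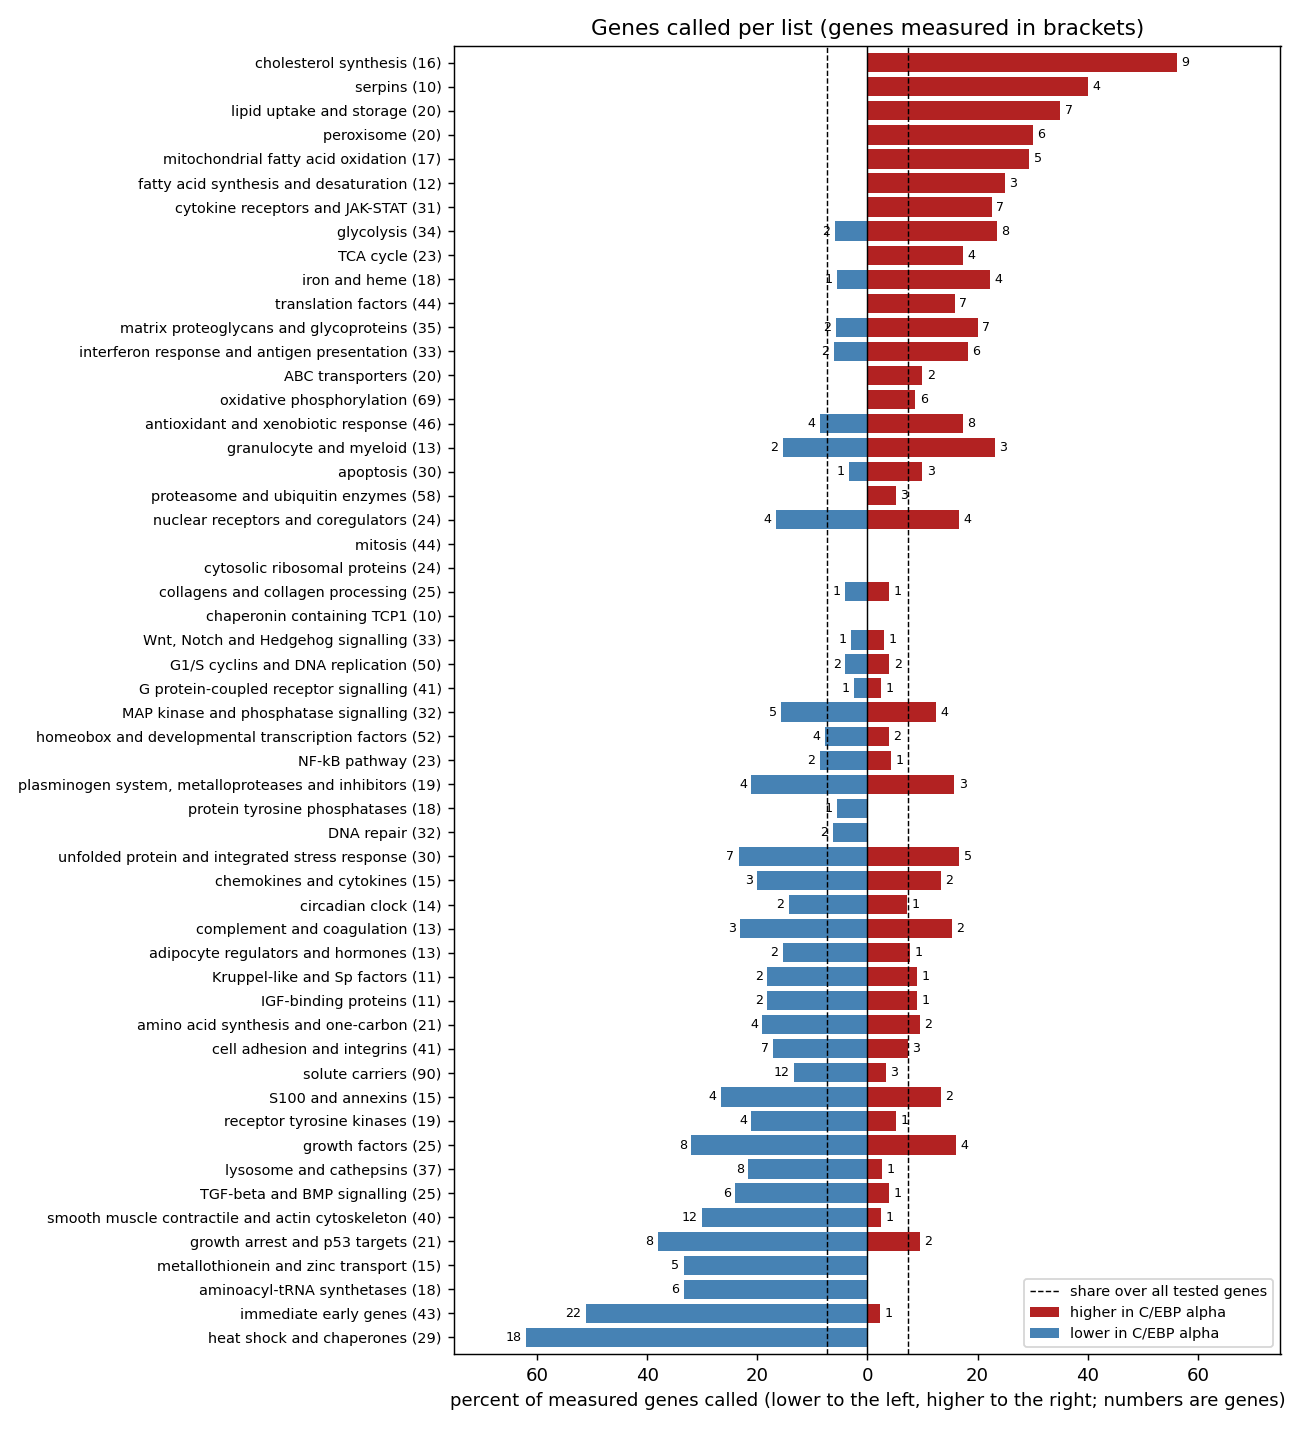
Percent of the measured genes of each list (number in brackets, lists of at least 10) that were called higher in CEBPA (red, to the right) or lower (blue, to the left) by limma, with the number of genes at the bar ends; dashed lines mark the shares over all tested genes, 7.46% and 7.32%. Cholesterol synthesis reaches furthest to the right with 9 of 16 genes, and heat shock and chaperones furthest to the left with 18 of 29.

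Several ranked falls had other roles. Wwc1, the scaffold KIBRA of the Hippo pathway, read 6377, 6431 and 5597 in vector and 737, 1221 and 1061 in CEBPA and fell 6.22-fold (log2 -2.64, SE 0.19, adjusted p = 4.67e-08; log2 -2.04 on its other probe set). Hgsnat, a lysosomal enzyme of heparan sulphate breakdown outside the lysosome list, fell 5.13-fold from 11173 ± 1109 to 2210.1 ± 489.9 (log2 -2.36, SE 0.15, adjusted p = 1.97e-08). The lysosome list had 8 falls and 1 rise among 37 genes, but 2 of the falls held in every fit that tested them, among them the protease gene Ctsd (20600.1 ± 2468 to 11912 ± 1293, log2 -0.79, SE 0.18, adjusted p = 0.00584), and the count was 3 without vector replicate 2 and 4 without CEBPA replicate 1. Cyb5r1, a cytochrome b5 reductase, fell 3.89-fold (log2 -1.96, SE 0.16, adjusted p = 2.88e-07), but by log2 -0.45 on its other probe set (adjusted p = 0.0209), and Elmod3, of a family that acts on small GTPases, 4.85-fold (log2 -2.28, SE 0.22, adjusted p = 1.66e-06). S100a3, a calcium-binding protein of hair, fell 4.33-fold from 1588 ± 531 to 375 ± 137 (log2 -2.11, SE 0.51, adjusted p = 0.00881). Ptpn14, a tyrosine phosphatase, fell from 4127 ± 497 to 1369 ± 115 (log2 -1.59, SE 0.16, adjusted p = 2.70e-06). Of 90 solute carriers 12 fell and 3 rose, the falls being 7 without vector replicate 2, and the largest rise was the sodium, potassium and chloride cotransporter Slc12a2, from 7016 ± 1129 to 17013 ± 1099 (log2 1.29, SE 0.14, adjusted p = 5.62e-06).

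Iron and adipocyte genes outside the lipid lists were mixed. Tfrc, the transferrin receptor, read 7594, 6635 and 9700.4 in vector and 13990.3, 12630.4 and 15401 in CEBPA and rose 1.77-fold (log2 0.83, SE 0.15, adjusted p = 0.000778). Ncoa4, which delivers ferritin to the lysosome, rose 1.98-fold from 3047 ± 209.7 to 6078 ± 1002 (log2 0.99, SE 0.15, adjusted p = 0.000181), and Cp, the copper oxidase ceruloplasmin, from 1531 ± 183 to 3459.8 ± 230.1 (log2 1.18, SE 0.20, adjusted p = 0.000625). Dlk1, a surface protein that marks preadipocytes, fell 1.58-fold from 20377, 27075 and 20546 in vector to 14148, 13318 and 15341 in CEBPA (log2 -0.66, SE 0.16, adjusted p = 0.00859). Neither gene with values for each array had overlapping groups, as in nearly all called genes. Of 27 adipocyte regulators and hormones 13 were measured, 1 rose, which was Pparg, and 2 fell. Pparg did not pass against vector with no floor (adjusted p = 0.0619, range 1.08e-09 to 0.0619). Anxa1, an annexin that binds membranes with calcium, rose 1.96-fold from 32830.1 ± 2801 to 64607 ± 7219 (log2 0.97, SE 0.12, adjusted p = 2.57e-05). Bnip3, a mitochondrial protein of hypoxia and mitophagy, rose 2.46-fold (log2 1.30, SE 0.18, adjusted p = 0.000112), and Sat1, which acetylates polyamines, fell 2.49-fold from 23717 ± 3276 to 9549 ± 1467 (log2 -1.32, SE 0.23, adjusted p = 0.000665).

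The calls of 9 further ranked genes were less secure. H2-M2, a class I relative, read 242, 300 and 227 in vector and 871, 768 and 1052 in CEBPA. All of these lay under the filter, which arrays of the other C/EBPs passed. H2-M2 rose 3.5-fold (log2 1.81, SE 0.37, adjusted p = 0.00262) but not with a higher floor (adjusted p = 0.435, the highest over the alternatives). Abcb10, a transporter of the inner mitochondrial membrane, rose 3.16-fold (log2 1.66, SE 0.39, adjusted p = 0.00753, range 0.00411 to 0.121), and it did not pass without CEBPA replicate 1 (adjusted p = 0.0524). Gsdme, the pore-former gasdermin E, rose 3.22-fold (log2 1.69, SE 0.42, adjusted p = 0.0116, range 0.002 to 0.0453), and it was lost without vector replicate 3 (0.0555) or CEBPA replicate 1 (0.0635). Its other probe set was called in the main fit too (log2 1.92, adjusted p = 0.00311 in limma). Igfbp4, which binds insulin-like growth factors, read 1564, 302 and 1318 in vector and 3086, 2402 and 2776 in CEBPA (log2 1.68, SE 0.52, adjusted p = 0.0378, range 0.00696 to 0.156). Its call was lost without vector replicate 2 (0.168) or without any 1 CEBPA array (0.0736 to 0.102), and its other probe set read log2 -0.25 (adjusted p = 0.713). Among the falls, Itga7, an integrin of laminin, was lost without the arrays numbered 1 (log2 -2.20, SE 0.50, adjusted p = 0.00617, range 0.000217 to 0.0689) and the muscle enzyme gene Adssl1 without CEBPA replicate 3 (0.0870; log2 -1.76, SE 0.48, adjusted p = 0.0192, range 0.00193 to 0.0325). Akap2, Star and Skil each had 1 CEBPA array close to the vector arrays. Akap2 read 1527, 2858 and 2890.5 in vector and 669, 252 and 1217 in CEBPA (log2 -1.98, SE 0.62, adjusted p = 0.0397, range 0.0132 to 0.158), and it was lost without vector replicate 2 or 3, CEBPA replicate 1 or 2, CEBPD replicate 3 or CEBPE replicate 3, up to an adjusted p of 0.193 without CEBPA replicate 2. Star (log2 -1.94, SE 0.58, adjusted p = 0.0345, range 0.0129 to 0.181) and Skil (log2 -1.91, SE 0.57, adjusted p = 0.0331, range 0.0178 to 0.297) were each lost without any 1 vector array and without CEBPA replicate 1 or CEBPA replicate 2, up to 0.133.

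Set against the mean of CEBPB, CEBPD and CEBPE, CEBPA differed in fewer genes, 80 higher (1.50%) and 116 lower (2.17%) in limma. This comparison shares the CEBPA arrays with the first, so the 2 are not independent. The genes that stood furthest above the other C/EBPs were, after Tgm3, Cd1d1, Pparg, Hp, Lpl and S100a8, the protease inhibitor gene Serpinb2, Wfdc21, the peroxisomal fatty acid transporter gene Abcd2 and the granzyme inhibitor relative Serpinb9e. S100a8 read 8726 ± 929 in CEBPA, 705 ± 308 in CEBPB, 1165 ± 239 in CEBPD and 1445 ± 338 in CEBPE (log2 3.08, SE 0.22, adjusted p = 2.20e-07). Pparg, the nuclear receptor of fat cell differentiation, read 2983 ± 324 in CEBPA and 143 ± 90.4, 331 ± 75.3 and 26.3 ± 3.36 in the others (adjusted p = 0.000164). Of those 9 arrays 5 were at the floor, so the size of the Pparg difference depends on it, and the call was lost with no floor (adjusted p = 0.104, the highest over the alternatives). Serpinb2 read 2189 ± 399.8 against 262 ± 51.5, 278 ± 93 and 349 ± 195 (log2 2.92, SE 0.50, adjusted p = 0.00171). Abcd2 read 2534 ± 485 against 479 ± 126, 527 ± 168 and 656 ± 182 (log2 2.23, SE 0.33, adjusted p = 0.000557). Serpinb9e, which has close relatives on the chromosome, read 2832 ± 188 in CEBPA, 1122 ± 108 in vector and 596 ± 79.9, 807 ± 171 and 491 ± 193 in the others (log2 2.23, SE 0.23, adjusted p = 1.95e-05). The other C/EBP groups thus averaged below vector for Serpinb9e, while CEBPA lay above it.

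Of the ranked rises, some stood above the other C/EBPs and some did not. Abhd5 was 2.98-fold above their mean (log2 1.58, SE 0.16, adjusted p = 1.33e-05), Dio2 2.47-fold (log2 1.31, SE 0.13, adjusted p = 1.28e-05) and Lyz2 3.22-fold (log2 1.69, SE 0.26, adjusted p = 0.00071). Saa3, from the acute phase list, was 3.74-fold above it (log2 1.90, SE 0.22, adjusted p = 5.21e-05). Mvd, Dcn and Met had risen over vector but did not pass here. Dcn read 11995 ± 1836 in CEBPA, 9396 ± 802 in CEBPB, 5261 ± 542 in CEBPD and 30104 ± 6585 in CEBPE, so its difference from their mean (log2 0.07, SE 0.14, adjusted p = 0.918) averages groups on both sides. Mvd read 2762 ± 963 against 3180.2 ± 1295, 824 ± 432 and 2836 ± 189 (log2 0.52, SE 0.34, adjusted p = 0.586), with CEBPD the lowest, and Met 1239.8 ± 316 against 1541 ± 484, 728 ± 289 and 802 ± 416 (log2 0.44, SE 0.39, adjusted p = 0.753). No cholesterol synthesis gene passed in this comparison (0 of 16 in limma, with 2 higher and 0 lower at an unadjusted p under 0.05). Of 55 lists 39 held at least 1 call against the other C/EBPs. Over all tested genes 1.50% were called higher and 2.17% lower, so a long list can hold a call at that share. Among lists described above, lipid uptake had 4 of 20 genes higher, the peroxisome 3 of 20, acute phase 4 of 7 and interferon genes 4 of 33 (1 lower). A list of serpins, not described above, had 3 of 10 higher. Against vector 4 serpins rose and 0 fell (1 at an unadjusted p under 0.05 in limma). Those rises were 1 without CEBPA replicate 1 or CEBPA replicate 3, 2 without CEBPA replicate 2 and 0 without the arrays numbered 1. Heat shock genes had 7 of 29 lower and immediate early genes 14 of 43 lower and 1 higher. Contractile genes had 6 of 40 lower and growth arrest and p53 genes 5 of 21. For 4 of the 7 heat shock genes and 6 of the 14 immediate early genes the CEBPE mean was at or below that of CEBPA. Hspa1b read 4653 ± 832 in CEBPA, 27886 ± 909 in CEBPB, 67989 ± 6750.3 in CEBPD and 3600.4 ± 476 in CEBPE, and Gadd45b 2722 ± 1233, 7295 ± 953, 16444 ± 2267 and 1054 ± 113. CEBPA and CEBPE were thus both low for these genes and CEBPD near vector, and CEBPA was not tested against CEBPE alone.

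The genes furthest below the other C/EBPs included secreted and matrix-linked proteins. Ccn1, a matricellular protein, read 1690.2 ± 111 in CEBPA, 5019.9 ± 414 in vector and 4590.3 ± 329, 4905 ± 467 and 2589.9 ± 172 in CEBPB, CEBPD and CEBPE (log2 -1.20, SE 0.10, adjusted p = 1.73e-06). Its relative Ccn2 read 6850 ± 406 against 16919 ± 1542, 10758 ± 1135 and 11791 ± 1602 (log2 -0.91, SE 0.11, adjusted p = 5.21e-05). F3 read 3191 ± 89.8 in CEBPA, below vector, and 10173 ± 1393 in CEBPB, above vector, with 4739 ± 427 and 6809.5 ± 1016 in the other two (log2 -1.10, SE 0.12, adjusted p = 2.40e-05). The serine protease gene Prss23 read 2617 ± 388 against 7269.6 ± 710.5, 5720.3 ± 519 and 4856 ± 853 (log2 -1.17, SE 0.14, adjusted p = 5.21e-05). Cd68, Id3 and Clu differed by -1.15, -1.14 and -0.93 on the log2 scale, and among the other groups CEBPD had the highest mean for all 3 (2811 ± 103, 5435 ± 1116 and 4422 ± 771). Mgp, matrix Gla protein, an inhibitor of calcification, had the largest difference (log2 -1.83, SE 0.38, adjusted p = 0.00803). It read 314 ± 179.7 in CEBPA and 498 ± 295 in vector, a difference that did not pass the test (adjusted p = 0.583), and 1358 ± 307, 912 ± 355 and 1295 ± 264 in the others. Mgp did not pass when CEBPA replicate 3 was left out (adjusted p = 0.0870). Zfp787, a zinc finger gene, differed by -1.31 and did not pass without CEBPA replicate 1 (0.116), CEBPA replicate 2 (0.256), CEBPB replicate 1 (0.0534), CEBPB replicate 3 (0.0554) or CEBPE replicate 3 (0.0549; adjusted p over the alternatives 0.000977 to 0.166). Tecta, the tectorin of the inner ear, differed by -1.20 and did not pass without CEBPA replicate 2 (0.0609; alternatives 0.00259 to 0.168). Over all probe sets 249 were called here (3.58%), 133 without CEBPA replicate 2 and 160 without CEBPA replicate 3.

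**Figure D4:**
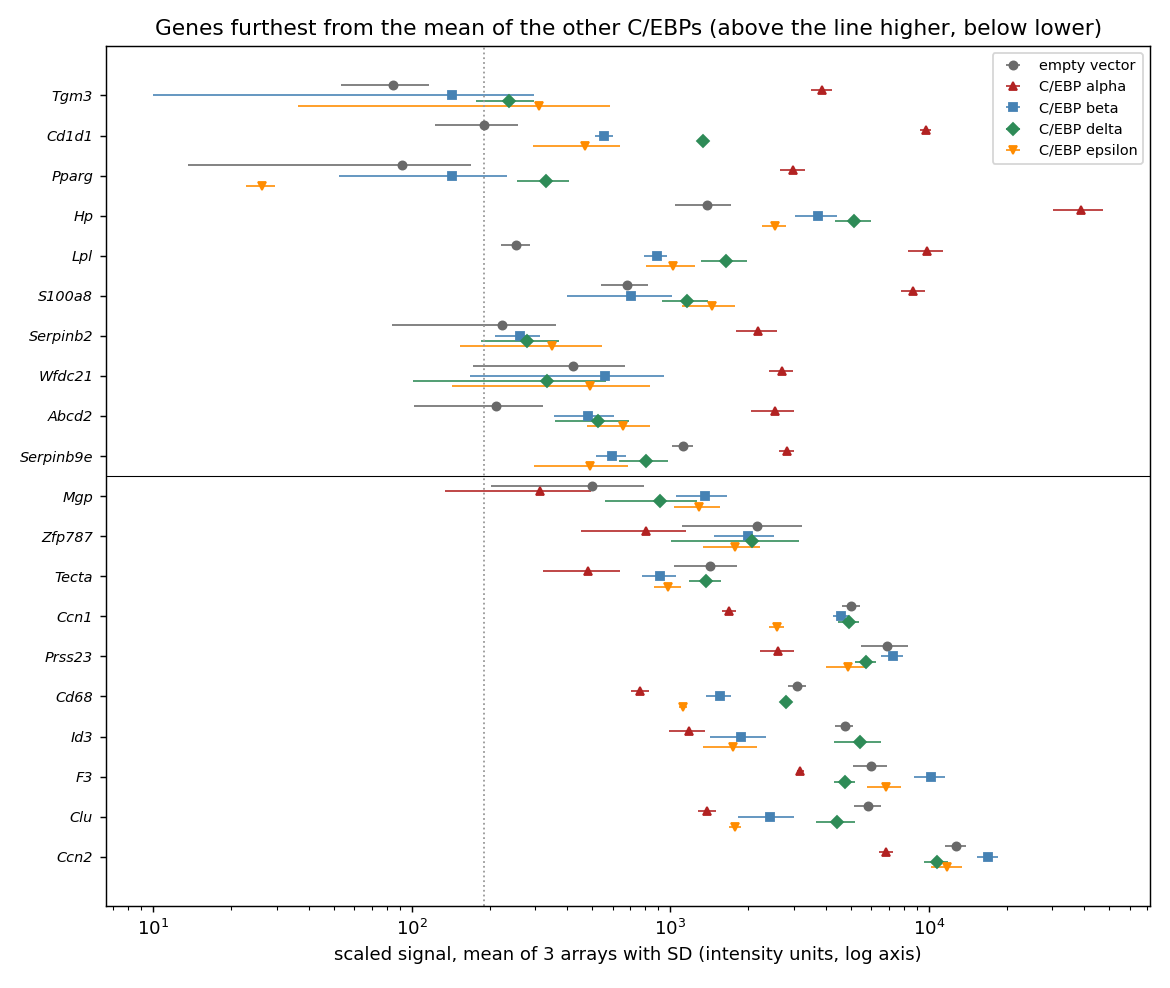
Scaled signal, mean of 3 arrays with SD (intensity units, log axis), in vector, CEBPA, CEBPB, CEBPD and CEBPE for the 10 genes furthest above and the 10 furthest below the mean of the other C/EBPs; the dotted line is the floor of 189.652 units, and an SD bar that would pass below 10 units ends there. In the upper rows the CEBPA triangle stands to the right of all other groups, and in the lower rows to the left.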

How the data were processed

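The authors deposited Affymetrix signal intensities on a linear scale for 15 arrays, made with Microarray Suite version 5.0 per the labels' protocols. The files hold no detection calls. The trimmed mean of every array lay between 2501.12 and 2501.39, so global scaling had been applied before deposit. The 66 control probe sets of 12488 were dropped. Arrays were then scaled to a common median (deposited medians were 992.25 to 1149.7), values were floored at the 20th percentile (189.652), and log2 values of the 6963 probe sets above the pooled median (1092.06) on at least 3 arrays were fitted with limma 3.58.1 in R 4.3.3 (lmFit, eBayes with trend, 1 coefficient for each of the 5 groups, all 15 arrays). Tests were 2-sided with Benjamini-Hochberg adjustment over all probe sets of a contrast at 0.05. The brightest tested probe set stood for its gene. In simulated data with 200 changed probe sets the fit of CEBPA minus vector, on 6963 probe sets, recovered 27.8% of those changed 1.5-fold, 67.8% at 2-fold and 90.6% at 3-fold.

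The members and gene lists were chosen with earlier results of these data known. Named genes were ranks 11 to 40 in each direction, up to 8 members of a list with the largest called differences, the 10 largest differences each way against the other C/EBPs, the family and the cell type markers. Ranks 1 to 10 appear only for a list or a promoter. The correlations of deviations of same-numbered vector and CEBPA arrays were 0.323, 0.0724 and 0.0603. Replicate 1 of either group against replicates 2 and 3 of the other gave -0.184 to -0.122. Deviations sum to 0 within a group, so a positive pair forces negative values elsewhere, and these add no support. By the 0.323 alone the arrays numbered 1 shared deviations, the source of which was not tested. The first array of each group has no number in its title and was numbered 1 here. Numbers 2 and 3 did not pair, with 0.110 for vector 2 and CEBPA 3 and 0.0623 for vector 3 and CEBPA 2. The main fit held no replicate term. Alternatives changed the scaling, floor, filter, trend, array weights, block, the arrays fitted and the probe set. Promoters came from RefSeq (GRCm38.p6).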

Additional observations from a re-analysis of the deposited data

How the results depend on the processing

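Between CEBPA and vector 997 probe sets were called (14.3%), and the count stayed within 1.5 times of this with quantile normalization (1276), no scaling (1246), no floor (993), no filter (965), no trend (937), array weights (1155) and only the 6 arrays compared (807). It was 642 without the arrays numbered 1, of which 594 were shared, and 743 to 1029 when 1 array was left out. The share of higher calls was 50.1%, against 61.4% without vector replicate 2, 43.6% without CEBPA replicate 3 and 40.5% without the arrays numbered 1. Between CEBPA and the other C/EBPs 249 were called (3.58%), 160 without the arrays numbered 1 and 133 to 264 when 1 array was left out. With the replicate number as a block, which the main fit left out, the counts were 1440 and 393. Of 336 called list and ranked genes 191 kept the call in every alternative and left-out fit. Another probe set of the same gene had the opposite sign for Angptl4 (-0.43), Igfbp4 (-0.25), Psmb5 (-0.31), Slc23a3 (0.19) and Srxn1 (0.018), and no such probe set was called. Further called genes were not called on another probe set of the same sign, among them Hsp90aa1 (log2 -0.99 and -0.08) and Bcl2l11 (-0.92 and -0.33). Conversely, Lcn2, Atf3 and Dnajb6 were not called on the brightest probe set (log2 0.08, -0.16 and -0.58). Another probe set of each was called in limma (2.55, -1.69 and -1.05). The causes were not tested. Signals near the floor limit folds of dim genes.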
